A study of Homo sapiens with 4 samples.

Results

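The replication-dependent histone genes encode the bulk of the core and linker histones that package newly copied DNA. Members were taken by name: protein-coding genes of the deposited tables whose Ensembl identifier maps to H1-1 through H1-6, or to a symbol starting with H2AC, H2BC, H3C or H4C (older names starting with HIST). This rule found 72 genes among 58736 listed features: 6 for the linker histone H1, 17 for H2A, 19 for H2B, 15 for H3 and 15 for H4. Of these, 34 were expressed at a level that allowed a test. Of the 34, 7 were called lower in the cells given the NT1_hp2 probe, against 8.92% of all tested genes. The calls depended on the processing: 2 of the 7 were still called once trends with gene length and GC were removed. In that setting 1.10% of all genes were called lower.

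The study examined gene regulation by flap endonuclease 1 (FEN1), a nuclease that cuts the flaps of branched DNA, steered by hairpin-shaped DNA probes. HEK293A cells, an adherent human embryonic kidney line, were seeded at 300000 per well and received 1 µg of FEN1 plasmid. After 48 h they received 500 pmol of DNA probe, and RNA was taken after 72 h. The 2 groups were a negative control (libraries NC_1 and NC_3) and NT1_hp2 (libraries NT1_hp2_2 and NT1_hp2_3), so that both carried the FEN1 plasmid and both were transfected with DNA. The target of the NT1_hp2 probe and the nature of the control probe could not be read from the labels, and nothing there says that the 2 libraries of a group came from separate cultures. The p-values below therefore cover only the variation among these libraries, which can be technical.

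Most messenger RNAs end in a poly(A) tail. Messages of the replication-dependent histone genes instead end just after a short stem-loop, which is bound by the stem-loop binding protein SLBP and cut with the help of the U7 small nuclear ribonucleoprotein. The canonical genes lack introns and lie in clusters. They are transcribed under the coactivator NPAT as cells enter S phase, and their messages are degraded when DNA synthesis ends. Some of them also make polyadenylated transcripts from a signal beyond the stem-loop. How much histone message a library holds thus depends on whether it was made from poly(A)-selected RNA, which the labels do not state. They name total RNA as the molecule and a library kit that does not mark the strand.

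The stem-loop is shown for the members on which the results turn, since it is the element that sets these messages apart. It was looked for in the transcripts of GENCODE 29, the annotation whose identifiers the tables use, and found in the annotated transcripts of 32 of 72 members in 6 spellings. In each line below the 16 bases of the stem-loop are in capitals, with the flanking bases in lower case and coordinates on GRCh38. The first 4 genes fell in NT1_hp2, and the others did not pass the test.
H2AC25 (chr1:228457364-228457389, minus strand): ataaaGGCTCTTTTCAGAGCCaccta
H2AC6 (chr6:26124664-26124689, plus strand): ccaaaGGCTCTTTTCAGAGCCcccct
H2AC11 (chr6:27133510-27133535, plus strand): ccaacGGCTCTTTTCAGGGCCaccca
H2AC8 (chr6:26217412-26217437, plus strand): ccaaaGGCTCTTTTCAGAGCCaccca
H2BC26 (chr1:228458533-228458558, plus strand): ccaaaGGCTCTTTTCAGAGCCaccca
H2BC21 (chr1:149886183-149886208, minus strand): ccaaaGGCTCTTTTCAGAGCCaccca
H3C6 (chr6:26225591-26225616, plus strand): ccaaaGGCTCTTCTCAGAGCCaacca
H4C9 (chr6:27139649-27139674, plus strand): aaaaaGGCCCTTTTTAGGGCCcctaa

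The commonest spelling, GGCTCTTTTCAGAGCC, was carried by 17 of the 32 members, among them H2AC25, H2AC6 and H2AC8, which fell, and H2BC26 and H2BC21, which did not pass the test. All 8 H4 genes with a stem-loop began it with GGCCC, and all 24 of the H2A, H2B and H3 genes began it with GGCTC. In 19 of the 32 the annotated transcript ran on for over 100 bases past the stem-loop, up to 1917 bases in H2BC26. The other 40 members have gene models without it, 33 of them models that stop at the coding sequence. For those 33 no stem-loop could be found, whatever the gene holds.

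The promoters of H2BC12 and H1-2, the members with the most reads, and of H2BC21, an abundant H2B gene that did not pass the test, are shown next from RefSeq (GRCh38.p14), as the 250 bases before the annotated start. Capitals mark the octamer ATTTGCAT known from H2B promoters, the TATA box TATAAA and the CCAAT box CCAAT, on either strand.
H2BC12 (chr6:27146859-27147108, minus strand): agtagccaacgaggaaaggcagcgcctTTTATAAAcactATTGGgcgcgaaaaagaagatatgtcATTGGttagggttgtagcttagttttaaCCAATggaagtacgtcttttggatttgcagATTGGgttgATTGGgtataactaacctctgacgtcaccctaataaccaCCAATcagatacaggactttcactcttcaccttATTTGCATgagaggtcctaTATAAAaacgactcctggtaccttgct
H1-2 (chr6:26056471-26056720, minus strand): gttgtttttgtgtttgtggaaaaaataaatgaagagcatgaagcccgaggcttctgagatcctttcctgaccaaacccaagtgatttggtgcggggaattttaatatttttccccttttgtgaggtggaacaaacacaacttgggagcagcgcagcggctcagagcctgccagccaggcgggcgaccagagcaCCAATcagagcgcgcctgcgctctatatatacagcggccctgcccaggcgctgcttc
H2BC21 (chr1:149886683-149886932, minus strand): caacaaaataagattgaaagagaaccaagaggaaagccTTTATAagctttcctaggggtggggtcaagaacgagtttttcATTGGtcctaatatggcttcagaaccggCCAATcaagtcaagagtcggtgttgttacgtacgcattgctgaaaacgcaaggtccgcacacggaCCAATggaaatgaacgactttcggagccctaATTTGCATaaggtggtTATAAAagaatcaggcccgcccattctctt

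A promoter was matched for 66 of 72 members, here over the 250 bases before and 50 after the start. The octamer was in 14 of 18 H2B and 11 of 16 H2A promoters, in 1 of 13 for H3 and in none of the 6 for H1 or 13 for H4. That made 39.4% of the members' promoters, against 1.80% of all 27305 promoters of the same length. TATAAA was in 66.7% of the members' promoters against 11.95%, and CCAAT in 84.8% against 35.7%. All promoters of H1, H2A, H2B and H3 genes held a CCAAT, and 3 of 13 H4 promoters did. H2BC12 and H2BC21 share all 3 motifs, and their log2 fold changes between the groups, described further on, were -1.08 and -0.11. A match is a description of the letters only.

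Values are FPKM, fragments normalised to gene model length and library size, as inferred from the tables. They resolved into whole reads at every gene with a GENCODE length, giving 12506203 to 14908687 reads per library. For a model of 393 bases, the median length of an H2A gene here, 3 reads correspond to 0.530 to 0.608 FPKM. Of 6 markers of HEK293 cells, KRT8, KRT18, VIM, CDH2 and LHX1 were at or above 1 FPKM in all libraries and PAX2 was below it. KRT18 fell in NT1_hp2 (77.7, 68.8, 54.4 and 55.4 FPKM, log2 fold change -0.41, limma adjusted p = 0.0440). Of 9 markers of other cell types, 7 stayed under 1 FPKM in every library, with PTPRC and CD3E at 0. COL1A1 (7.85 to 8.44 FPKM) and COL3A1 (3.05 to 3.86 FPKM) were present in both groups.

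Reads from the 72 members were few. They numbered 4717 in NC_1, 3796 in NC_3, 3156 in NT1_hp2_2 and 3152 in NT1_hp2_3. Scaled to library totals, as reads per 1e+06 recovered reads, this was 316, 304, 231 and 232, so that both NT1_hp2 libraries lay below both controls. The share of all reads was 0.0316% (exact 95% binomial interval 0.0307 to 0.0326) in NC_1 and 0.0232% (0.0224 to 0.0240) in NT1_hp2_3, intervals that cover counting error only.

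A few genes held much of the signal. H2BC12, H1-2 and H2AC25 held 41.9% of all 14821 member reads. Together these 3 gave 149 and 136 on this scale in the control libraries and 82.3 and 86.8 in the NT1_hp2 libraries. The remaining 69 members gave 168 in each control and 149 and 145 in NT1_hp2, so both groups of genes were lower without overlap between the conditions.

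Detection was uneven. Of the 72, 64 had at least 1 read in some library, 44 had at least 10 reads over the 4 libraries, and 8 averaged 5 FPKM or more. The 8 with no read were H2AC7, H2AC15, H2BC12L, HIST1H3C (H3C3), H3C4, H3C7, HIST2H3PS2 and H4C7. In 5 of these over 97% of the gene model's 100-base stretches occur in another gene too, so that reads from those stretches cannot be placed on 1 gene; the exceptions are HIST1H3C, H3C7 and H4C7. A test needed at least 1 FPKM in at least 2 libraries, which 34 members met and 38 did not. The 38 held 376 reads in all, 2.54% of the members' total, and 125 of these were from H4C16 on chromosome 12. No member passed through one group alone.

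By type, 4 of 6 H1, 12 of 19 H2B, 7 of 17 H2A, 6 of 15 H3 and 5 of 15 H4 genes were tested. At least 10 reads over the 4 libraries were found for 4 H1, 12 H2B, 10 H2A, 7 H3 and 11 H4 genes, so the order of the types depends on the measure. The median level over all genes of a type, per kilobase and averaged over libraries, was 1.36 FPKM for H2B, 1.33 for H1, 0.641 for H4, 0.541 for H2A and 0.133 for H3. For H2A, H3 and H4 these medians lie near or under the level of 3 reads. The highest mean levels were those of H2BC12 in H2B, H1-2 in H1, H2AC25 in H2A, H4C9 in H4 and H3C10 in H3. They ran from 98.0 FPKM (H2BC12) down to 3.36 FPKM (H3C10). In H3 no single gene led, since H3C6 was at 3.34 FPKM and had more reads (492 against 230 for H3C10).

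**Figure D1:**
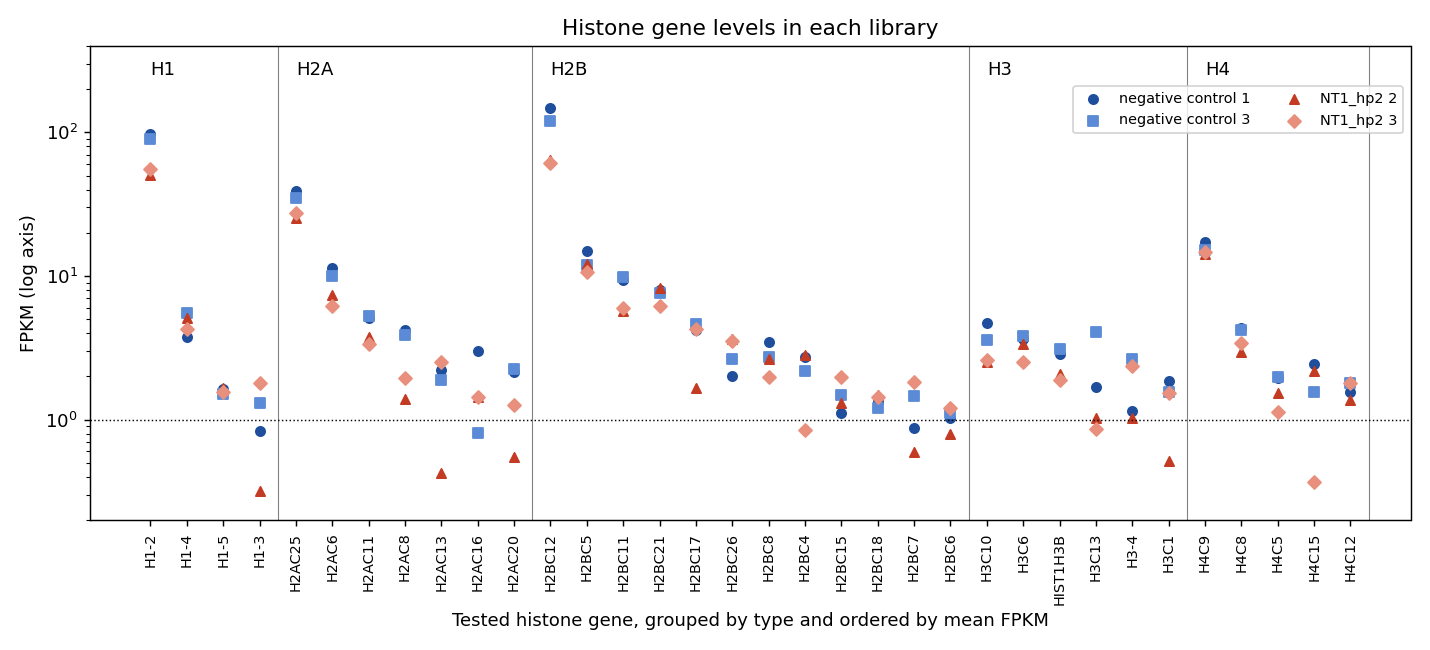
Level of each tested histone gene in FPKM (vertical log axis) in the 2 negative control and 2 NT1_hp2 libraries, 1 point per library, grouped by histone type along the horizontal axis; the dotted line is 1 FPKM. H2BC12 and H1-2 stand highest, with both control points above both NT1_hp2 points, while most H3 and H4 genes lie within a few FPKM of the line.

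How a gene is annotated went with whether its reads were counted. Among 33 members whose model stops at the coding sequence, 11 (33.3%) were tested and 7 had no read. Among 23 with a polyadenylation signal (AATAAA or ATTAAA in the last 50 bases of a transcript), 15 (65.2%) were tested and none was without a read. The remaining 16, with untranslated bases but no such signal, lay between, with 8 (50%) tested. Median levels over all genes of each kind ran 0.179, 1.64 and 1.03 FPKM in that order. FPKM corrects for the longer models, but reads beyond a coding-only model are not counted, so these are levels of the gene models.

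**Figure D2:**
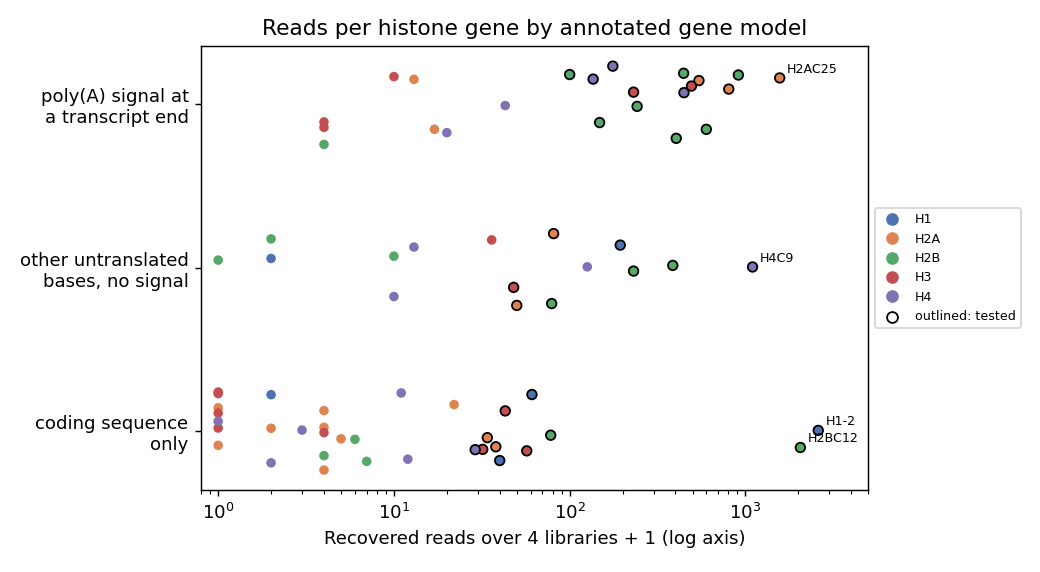
Reads recovered for each of the 72 histone genes, summed over 4 libraries with 1 added (horizontal log axis), by kind of gene model; colour gives the histone type and an outline marks tested genes. Genes with a polyadenylation signal hold 7340 reads and none of them is at 0, while coding-only models hold 5130 reads, most of them in H2BC12 and H1-2.

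Other RNAs without a poly(A) tail were listed at low values or at 0. Of 21 such genes, 11 were listed at 0 in all 4 libraries, among them RN7SK, RMRP and RPPH1, abundant RNAs that cells in general use, so that a listed 0 cannot be read as absence, and 17 stayed under 1 FPKM in every library. RNU5A-1, the U5 spliceosomal RNA, was listed at 3.59, 6.18, 4.88 and 5.46 FPKM, SCARNA6 at 0.267 to 2.13 and RNU4-1 at 0.493 to 0.565. RN7SL2, an RNA of the signal recognition particle, was at 40.1 and 28.1 FPKM in the controls and 3.78 and 7.98 in NT1_hp2. It was 1 of 3 tested genes of this list and fell (log2 fold change -2.40, SE 0.36, limma adjusted p = 0.0362), in the direction of the 7 histone genes described next. Its near-identical copy RN7SL1 was listed at 0, so its level is uncertain. The gene models of these RNAs are 63 to 699 bases long, and the part of length or of RNA without a tail in the histone result was not tested.

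Between the groups, 7 of the 34 tested histone genes were lower in NT1_hp2 and none was higher (limma on log2(FPKM + 1), with p-values adjusted by Benjamini-Hochberg over 16362 genes and a threshold of 0.05). The background was 8.92% of all tested genes lower and 5.00% higher. At an unadjusted p under 0.05, 12 of the 34 were lower and 1 was higher, against 21.2% and 15.9% of all tested genes. Limma-voom on the recovered reads called 6 lower and 1 higher, against 14.8% and 20.6% of all genes by that test, and H2AC8 was the call it lost. The 7 were 4 of 7 tested H2A genes, 2 of 12 for H2B, 1 of 4 for H1, and 0 of 6 for H3 and 0 of 5 for H4. Whether the types differ from each other was not tested. In bulk RNA, fewer cells in S phase and less histone message per cell cannot be told apart.

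Leaving out any single library ended all 7 calls: limma then found 0 members, with adjusted p from 0.0606 to 0.214 for the 7 and all 7 stayed below 0. In these fits 11 to 14 members had an unadjusted p under 0.05, as did 20.3% to 35.7% of all tested genes. Gene models of tested members were shorter than those of all tested genes (median 883 against 3995 bases) and richer in GC (51.0% against 47.9%). After a smooth trend with length and GC was removed from each library, an alternative chosen after seeing the data, H1-2 and H2BC11 were still called and the other 5 had adjusted p from 0.0519 to 0.0742. The background was then 1.10% of genes lower and 0.703% higher. Among protein-coding genes alone 12 members were lower and 1 higher, on a background of 24.2% and 14.6%.

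**Figure D3:**
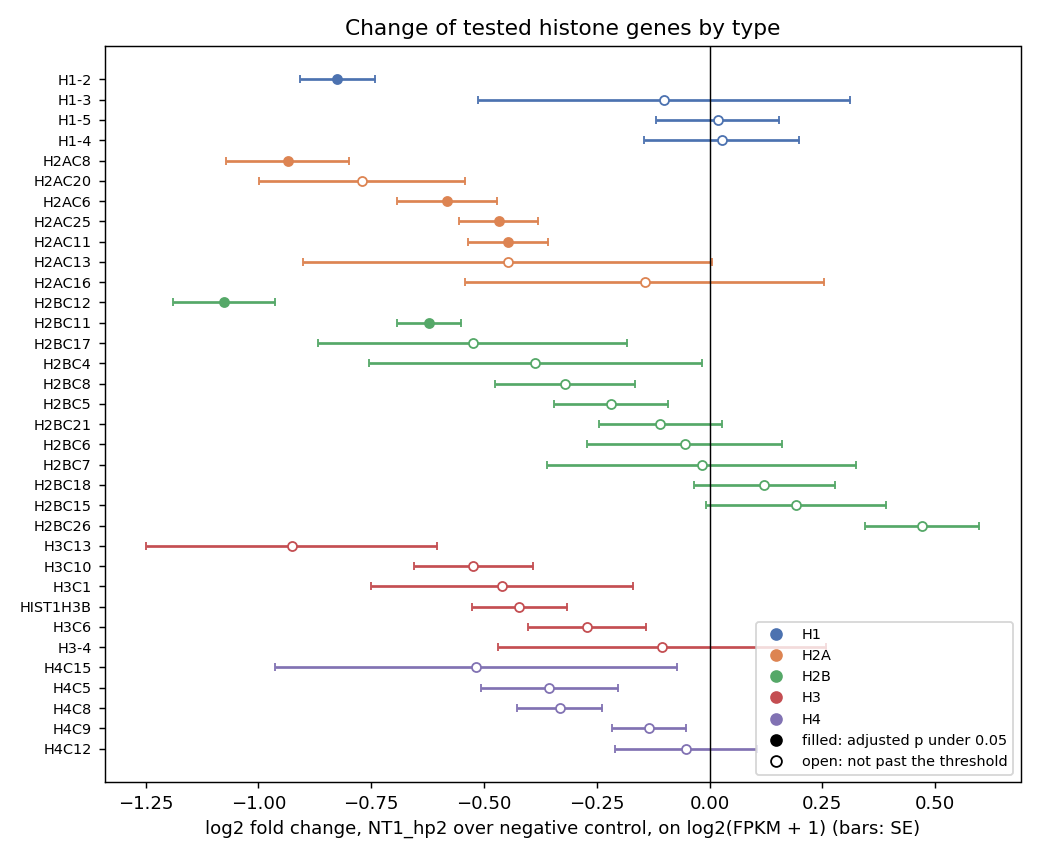
Log2 fold change of NT1_hp2 over negative control for the 34 tested histone genes (horizontal axis, on log2(FPKM + 1), bars are standard errors), grouped and coloured by histone type; filled points passed an adjusted p of 0.05. The 7 filled points all lie left of 0, from -1.08 (H2BC12) to -0.45 (H2AC11), and H2BC26 lies farthest to the right at 0.47.

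H2B pairs with H2A to form the dimers that flank the central H3-H4 core. H2BC12 (ENSG00000197903, chr6:27146418-27146798, minus strand, coding exon only), the most abundant member, was at 147 and 120 FPKM in the controls and at 63.9 and 61.0 in NT1_hp2. The groups did not overlap. Mean levels were 133 ± 18.8 and 62.5 ± 2.07 FPKM (SD, n = 2 each), a ratio of 0.468, and the log2 fold change was -1.08 (SE 0.11, limma adjusted p = 0.0340). Its reads numbered 805, 575, 344 and 330 in the same order. Of its 100-base stretches, 28.4% also occur in other genes, H2BC12L among them, so that the placing of reads from those stretches is uncertain.

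H2BC11 (chr6:27125897-27132750, minus strand) lies in the same small cluster and was lower by 0.62 on the log2 scale (SE 0.07, limma adjusted p = 0.0340). It was at 9.36 and 9.80 FPKM in the controls against 5.74 and 6.01 in NT1_hp2, again without overlap. None of its sequence is shared with another gene, and its model includes a polyadenylated transcript.

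Of the other 10 tested H2B genes none passed the test. H2BC5, the second most abundant, was at 14.99, 11.88, 12.03 and 10.67 FPKM (adjusted p = 0.274). H2BC21, whose promoter and stem-loop are shown above, was at 7.95, 7.65, 8.29 and 6.16 FPKM (log2 fold change -0.11, adjusted p = 0.610), with the groups overlapping. Their models, of 871 and 2194 bases, end in a polyadenylation signal.

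H2BC26 went the other way without passing the threshold. Its levels were 1.998 and 2.63 FPKM in the controls and 3.62 and 3.52 in NT1_hp2, from 68, 78, 121 and 118 reads. The log2 fold change was 0.47 (SE 0.13, adjusted p = 0.0663), and limma-voom on the recovered reads called it higher (adjusted p = 0.00979, with 20.6% of all genes called higher and 14.8% lower by that test). The ratio of its pooled reads, scaled to the library sizes that the FPKM scale implies, was 1.56. The exact 95% interval of 1.26 to 1.93 covers counting error only. H2BC18 (1.33, 1.195, 1.48 and 1.43 FPKM) was the only other tested member with both NT1_hp2 libraries above both controls, and H2BC15 (1.12, 1.48, 1.31 and 1.97 FPKM) overlapped. The exons of H2BC15 and H2BC18 overlap other genes, and without strand their reads cannot be told apart from those of the overlapping genes.

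The linker histone H1 binds where DNA enters and leaves the nucleosome. H1-2 (ENSG00000187837, chr6:26055787-26056428, minus strand, coding exon only) was at 97.9 and 90.6 FPKM in the controls and at 50.4 and 55.2 in NT1_hp2, without overlap. Means were 94.3 ± 5.14 and 52.8 ± 3.38 FPKM (SD, n = 2 each), with a log2 fold change of -0.82 (SE 0.08, limma adjusted p = 0.0340). It rests on 905, 731, 457 and 503 reads, and none of its sequence is shared.

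The other tested H1 genes were far lower, and their groups overlapped. H1-4 was at 3.78, 5.49, 5.07 and 4.30 FPKM (log2 fold change 0.03) and H1-5 at 1.63, 1.52, 1.66 and 1.55 FPKM (0.02). H1-3 ranged from 0.319 to 1.80 FPKM on 3 to 17 reads per library, with the NT1_hp2 libraries at the lowest and the highest value. H1-1 and H1-6, the latter known from testis, had 1 read each.

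Of the 7 tested H2A genes, 4 fell. H2AC25 (chr1:228456979-228457873, minus strand), the third most abundant member, was at 39.3 and 34.7 FPKM in the controls and at 25.5 and 27.4 in NT1_hp2. The groups did not overlap, and the log2 fold change was -0.47 (SE 0.09, limma adjusted p = 0.0400). H2AC6 (chr6:26124145-26139116, plus strand) was at 11.4, 9.93, 7.39 and 6.21 FPKM, a change of -0.58 (SE 0.11, limma adjusted p = 0.0409). H2AC11 (chr6:27133042-27135291, plus strand) was at 5.12, 5.31, 3.78 and 3.35 FPKM, a change of -0.45 (SE 0.09, limma adjusted p = 0.0422), and lost its call when the length trend alone was removed (adjusted p = 0.0955).

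H2AC8 (chr6:26216975-26217483, plus strand) had the fewest reads of the 7. Its levels were 4.23, 3.91, 1.39 and 1.94 FPKM from 31, 25, 10 and 14 reads, with a log2 fold change of -0.94 (SE 0.14, limma adjusted p = 0.0340). The read ratio, scaled to the implied library sizes as well, was 0.408, with an exact 95% interval for counting error of 0.242 to 0.669. Limma-voom on the reads did not call it (adjusted p = 0.0623). H2AC6, H2AC11 and H2AC25 have a polyadenylation signal in their models, and H2AC8 does not.

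The H3 genes, whose tails carry many of the studied histone marks, were low throughout. All 6 that were tested had a log2 fold change below 0, and none passed the test. At an unadjusted p under 0.05, 3 were lower (21.2% of all tested genes were), and limma-voom called 0 (14.8% of all genes lower). In 5 both NT1_hp2 libraries lay below both controls, as they did in 34.8% of all tested genes. H3C10 was at 4.72 and 3.60 FPKM in the controls and 2.52 and 2.62 in NT1_hp2 (log2 fold change -0.52, adjusted p = 0.0597). HIST1H3B, now H3C2, was at 2.87, 3.10, 2.07 and 1.89 FPKM (-0.42, adjusted p = 0.0599), so these 2 lay just outside the threshold. H3C6 was at 3.63, 3.83, 3.36 and 2.52 FPKM (-0.27, adjusted p = 0.201). H3C13 had the largest H3 difference (-0.93, SE 0.32, adjusted p = 0.112) at 1.69, 4.07, 1.03 and 0.857 FPKM. It rests on 5 to 21 reads per library, and 51.3% of its sequence stretches occur in other H3 genes.

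H4, the partner of H3 in the core tetramer, had 5 tested genes, all with a log2 fold change below 0. None passed the test, against 8.92% of all tested genes called lower. At an unadjusted p under 0.05, 1 was lower (21.2% of all tested genes were). Limma-voom called 0, against 14.8% of all genes lower. H4C9 led with 17.1, 15.1, 14.3 and 14.8 FPKM (log2 fold change -0.13, adjusted p = 0.294), with little room between the groups. H4C8 was at 4.37, 4.20, 2.98 and 3.42 FPKM (-0.33, adjusted p = 0.0753) and H4C5 at 1.96, 1.98, 1.52 and 1.14 FPKM (-0.36, adjusted p = 0.162). H4C15 ranged from 0.365 to 2.45 FPKM, and 97.1% of its sequence stretches are shared, so its level is uncertain.

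Over the tested members, 29 of 34 log2 fold changes were below 0, with a median of -0.34, against 8327 of 16362 and a median of -0.01 over all tested genes. In 17 members both NT1_hp2 libraries lay below both controls (background 34.8%), in 2 both lay above (background 32.0%), and in 15 the groups overlapped. The medians by type were -0.47 for H2A, -0.44 for H3, -0.33 for H4, -0.16 for H2B and -0.04 for H1, the last over 4 genes. These counts describe the genes that passed the expression filter.

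The genes fell into 8 groups by position when a gap of over 500000 bases was taken as a boundary. The largest, on chromosome 6 from 25.73 to 26.29 Mb, held 34 members, 15 of them tested and 3 lower (H1-2, H2AC6 and H2AC8), with a median log2 fold change of -0.33. A group of 5 on chromosome 6 from 27.13 to 27.15 Mb had 4 tested and 3 lower (H2BC12, H2BC11 and H2AC11), with a median of -0.53. Its tested member without a call was H4C9. It held 4118 reads against 6097 for the group of 34. Over all tested genes, 8.92% were called lower.

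Farther along chromosome 6, from 27.81 to 27.89 Mb, 16 members gave 1002 reads, with 7 tested, 0 called and a median of -0.14. On chromosome 1, 11 members from 149.78 to 149.89 Mb had 5 tested, 0 called and a median of -0.52, and 3 from 228.42 to 228.46 Mb had all 3 tested and 1 lower (H2AC25). At an unadjusted p under 0.05, limma gave 1 lower in the first of these groups and 2 in the second, and limma-voom called 0 in both. Over all genes, 21.2% were lower at an unadjusted p under 0.05 and limma-voom called 14.8% lower. The single members on chromosomes 12 (H4C16), 1 (at 143.91 Mb) and 21 were not tested. Whether clusters differ from each other was not tested.

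Many H2A and H2B genes are transcribed away from each other from a shared promoter region. There were 12 such head-to-head pairs with at most 1000 bases between their starts, 219 to 357 bases apart, and 11 of them joined an H2A to an H2B gene. In 5 pairs both genes were tested, and in 4 of these the log2 fold changes had the same sign. Since 29 of the 34 tested members were below 0, most pairs of members share a sign however they are drawn. Whether paired genes change together was not tested. H2BC11 and H2AC11, 292 bases apart, both fell (-0.62 and -0.45). The exception was H2AC25 and H2BC26, 234 bases apart, at -0.47 and 0.47, of which only H2AC25 passed the test. H2BC12 (98.0 FPKM on average) and its partner H2AC12 (0.995 FPKM), 331 bases apart, differed most in level.

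Histone genes outside the replication-dependent set were compared as a reference. Replacement histones take the place of the canonical forms, most of them from polyadenylated messages made outside S phase as well. The list is not free of cell cycle control: H2AX also makes a stem-loop message in S phase, and CENPA is made late in the cycle. Their 12 genes summed to 1130 and 985 FPKM in the controls and 911 and 895 in NT1_hp2, well above the 421 and 377 and the 244 and 250 FPKM of the 72 replication-dependent genes in the same libraries. Of 11 tested, 3 fell and none rose, against 8.92% and 5.00% of all tested genes, with a median log2 fold change of -0.32. At an unadjusted p under 0.05, 7 were lower and 0 higher, against 21.2% and 15.9% of all tested genes. Limma-voom called 5 lower and 1 higher, against 14.8% and 20.6% of all genes. H3-3A, which encodes H3.3, was at 113, 98.6, 71.2 and 66.5 FPKM (-0.61, SE 0.09, limma adjusted p = 0.0344). H2AX, the form phosphorylated at DNA breaks, was at 258, 232, 182 and 183 FPKM (-0.42, limma adjusted p = 0.0435), and MACROH2A2 changed by -0.45 (limma adjusted p = 0.0353). H3-3B, the other H3.3 gene, was at 128, 117, 125 and 115 FPKM and H2AZ1 at 182, 144, 129 and 120, and neither passed the test. After removal of length and GC trends, 1 of the 11 was called (H3-3A). The difference between the replacement and the replication-dependent genes was not tested.

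Among 22 genes that make or process histone messages, 3 fell, 2 rose and 17 did not pass the test, with a median of -0.09. The background was 8.92% of all tested genes lower and 5.00% higher. At an unadjusted p under 0.05, 7 were lower and 3 higher, against 21.2% and 15.9% of all tested genes. Limma-voom called 5 lower and 3 higher, against 14.8% and 20.6% of all genes. SLBP, which binds the stem-loop, was at 74.9, 76.3, 80.0 and 74.4 FPKM (log2 fold change 0.03, adjusted p = 0.810). NPAT, the coactivator of histone gene transcription, was at 5.44 and 5.45 FPKM in the controls and rose to 7.68 and 7.46 (0.41, SE 0.07, limma adjusted p = 0.0361). CASP8AP2 (FLASH), part of the complex that cuts the messages, rose as well (9.42, 10.6, 13.7 and 13.1 FPKM, 0.39, limma adjusted p = 0.0441). LSM10 and SNRPD3, proteins of the U7 particle's ring, fell by 0.46 each (limma adjusted p = 0.0401 and 0.0487), and MIF4GD, an SLBP partner in translation, fell by 0.39 (limma adjusted p = 0.0435). NPAT and CASP8AP2 have exon lengths of 7534 and 8171 bases and the 3 that fell have 1496 to 2766. With length and GC trends removed none of the 5 was called (adjusted p from 0.0712 to 0.305).

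Of 32 genes of S phase entry and DNA synthesis, 3 fell and 29 did not pass the test, with a median of -0.02. The 3 of 32 are near the 8.92% of all genes called lower. None rose, against 5.00% of all tested genes. At an unadjusted p under 0.05, 7 were lower and 3 higher, against 21.2% and 15.9% of all tested genes. Limma-voom called 7 lower and 6 higher, against 14.8% and 20.6% of all genes. TYMS, which makes thymidylate, was at 18.2, 17.9, 12.8 and 12.3 FPKM (-0.49, limma adjusted p = 0.0340). MCM5, a subunit of the replicative helicase, changed by -0.47 (limma adjusted p = 0.0340) and CDK2, the kinase that activates NPAT, by -0.42 (limma adjusted p = 0.0408). Of 21 tested histone chaperones, DAXX fell (-0.29, limma adjusted p = 0.0478) and its partner ATRX rose (0.40, limma adjusted p = 0.0430), with a median of -0.07. No other chaperone passed the test, against 8.92% of all tested genes lower and 5.00% higher. At an unadjusted p under 0.05, 5 chaperones were lower and 2 higher, against 21.2% and 15.9%. Limma-voom called 3 lower and 4 higher, against 14.8% and 20.6%. Of TYMS, MCM5, CDK2, DAXX and ATRX, only TYMS was still called with length and GC trends removed.

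**Figure D4:**
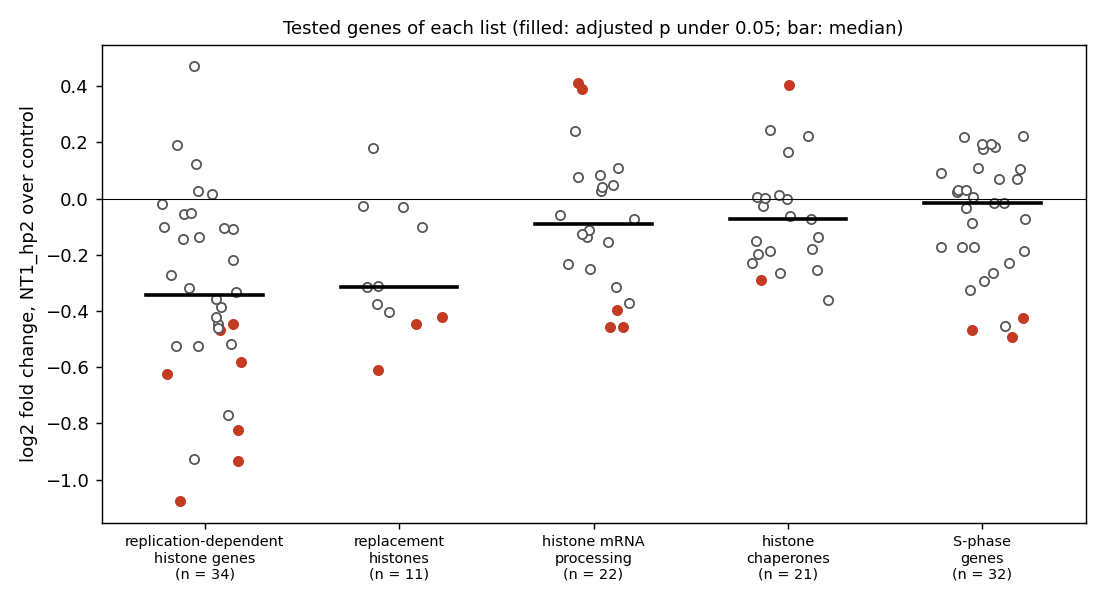
Log2 fold change of NT1_hp2 over negative control (vertical axis, on log2(FPKM + 1)) for the tested genes of 5 lists, 1 point per gene, filled where the adjusted p is under 0.05, with a bar at each list's median. The medians of the replication-dependent and replacement histones lie at -0.34 and -0.32, and those of the processing, S phase and chaperone lists between -0.09 and -0.02.

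The 7 histone genes that fell kept a log2 fold change below 0 under every one of the 15 alternatives run, and the plot of settings shows where each was called. Under the 3 other scalings of the libraries all 7 were called.

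**Figure D5:**
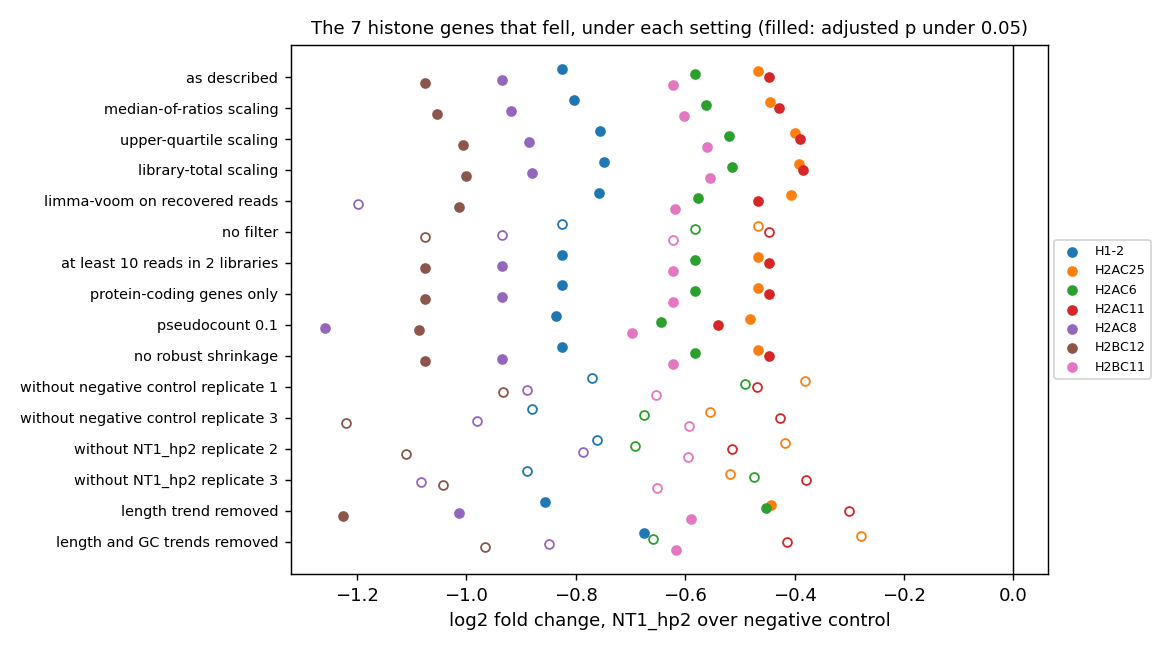
Log2 fold change (horizontal axis) of the 7 histone genes that fell, under each processing setting (vertical axis), filled where the adjusted p is under 0.05. All points lie left of 0, and all are open where a library was left out or no filter was applied.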

How the data were processed

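RNA from 4 HEK293A libraries, 2 per group as the labels name them, was analysed as deposited. The authors deposited 1 table per library with 1 value per Ensembl gene, made from read counts scaled by gene length and library size, so that the deposited values are FPKM as far as the values show. No header names the unit. It was inferred from the values, which became whole reads (100% within 0.01) when multiplied by GENCODE 29 exon length. The build is GRCh38.p12, per the submitters' processing notes. Not given in the sources used here were the aligner, the counter, the scaling and any RNA selection. The reads implied by the FPKM scale were 0.966 to 1.04 times the reads recovered.

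The 16362 genes that reached 1 FPKM in 2 or more libraries were tested by limma 3.58.1 (R 4.3.3) with trend and robust shrinkage on log2(FPKM + 1). P-values were Benjamini-Hochberg adjusted over all tested genes, with a threshold of 0.05. Fold changes on this scale understate the change of low genes. On simulated data for this comparison (16361 genes) the test found 22% of 1.5-fold, 62% of 2-fold and 78% of 3-fold changes, with 11 false calls. The simulation changed 50, 100 and 50 genes at these folds and gave all genes the same spread beyond counting error. Its rates therefore need not hold for the real libraries. Limma-voom on recovered reads, other scalings, filters and pseudocounts, removal of trends with length and GC (mgcv 1.9.3) and leaving out each library were alternatives.

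Members and lists were chosen with earlier results of these data known. Named genes were, by rule, all members past the threshold, the 4 highest per histone type, and the 3 largest and 3 smallest log2 fold changes; in the lists, those past the threshold, SLBP and NPAT, and the 4 most abundant of the replacement histones and of the RNAs without a tail. Of all these, 1 gene is not reported here. Others named were singled out after their values were seen. Sequence sharing was the share of 100-base stretches of a gene model found in another gene's transcripts. Intervals are exact 95% intervals for counting error only.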

Additional observations from a re-analysis of the deposited data

How the results depend on the processing

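No paired analysis was possible because the groups share fewer than 2 replicate numbers. With no filter, 0 of 72 histone genes were called lower. At an unadjusted p under 0.05, 10 of the 72 were then lower, against 4.49% of all 58736 genes. With at least 10 reads required in 2 libraries, 10 of 34 histone genes were called lower, against 1963 of all 18639 genes. Histone genes lower numbered 12 among protein-coding genes only and 2 with length and GC trends removed. Histone genes higher numbered 1 (H2BC26) by limma-voom and 1 among protein-coding genes only. Their median log2 fold change was -0.29 with upper-quartile and with library-total scaling, -0.39 by limma-voom, -0.10 with no filter, -0.45 with a pseudocount of 0.1, -0.27 with the length trend and -0.30 with both trends removed, and -0.40 to -0.30 when each library was left out. All genes lower numbered 2416 by limma-voom, 0 with no filter, 2938 among protein-coding genes, 180 with both trends removed and 0 to 1 when each library was left out. All genes higher numbered 1484 with upper-quartile scaling, 1531 with library-total scaling, 3369 by limma-voom, 131 with no filter, 1778 among protein-coding genes, 115 with both trends removed and 0 to 0 when each library was left out. Fewer samples were fitted when a library was left out, and more genes were adjusted over with no filter; the cause of the other shifts was not tested.

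Single genes near 0 changed sign. With the length trend removed, H1-5 was at -0.0031 and H2BC21 at 0.038. Leaving out each library gave ranges of -0.19 to 0.25 for H1-4, -0.014 to 0.049 for H1-5, -0.64 to 0.44 for H1-3, -0.30 to 0.079 for H2BC21 and -1.12 to 0.089 for H4C15. Depth limits the 28 members with under 10 reads in all, which were not among the 34 tested.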

Other observations

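Histone pseudogenes are copies that no longer encode a working histone. The tables list 24, 16 of them within 500000 bases of a coding member and 8 elsewhere. Of the 24, 7 had no read and 5 were tested, and limma called none lower or higher. H2BC20P, next to the chromosome 1 histone genes, had 1571 reads over its model of 6440 bases and levels of 3.73 and 5.19 FPKM in the controls and 4.54 and 4.29 in NT1_hp2. Only H2BC12 and H1-2 among the 72 coding genes had more reads. H2BC19P, whose model overlaps it, was at 2.15, 2.07, 1.69 and 1.93 FPKM from 391 reads. The groups overlapped for H2BC20P and did not for H2BC19P, whose log2 fold change was -0.15 (limma adjusted p = 0.423).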
